A study of Mus musculus with 3 samples.

Results

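Of 13500 chromatin windows from mouse molars, 727 (5.39%) lay at the ends of noncoding genes and over 1 kb from the ends of protein-coding genes. Each window is 201 bp long. A window was a member when its midpoint lay within 1 kb of an end of a gene that RefSeq does not class as protein-coding, and over 1 kb from either end of every protein-coding gene. The members touched 800 noncoding genes. Most were long noncoding RNAs (lncRNAs), whose windows sat close to transcription starts, and the next largest group was transfer RNA (tRNA) genes.

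The windows come from an ATAC-seq study, which cuts and tags DNA where chromatin is accessible, of the apical part of first molars of C57BL/6 mice at postnatal day 7.5. Control mice were Arid1a fl/fl (2 libraries) and mutant mice Gli1-CreER;Arid1a fl/fl (1 library), each library from 5000 cells released with collagenase, and whether animals were pooled is not given in the labels. All groups carried floxed Arid1a alleles, and the protocol given for every library has tamoxifen in corn oil (20 mg per ml) injected on postnatal day 3.5 at 1.5 mg per 10 g of body weight. The Cre is driven by Gli1, so deletion is limited to cells that express Gli1 and their descendants. The deposited windows are a union over regions with no value per library, so no level could be compared between mutant and control, and the depth behind a window is unknown. Of marker genes, 5 of 10 for dental mesenchyme and odontoblasts had an end with a window midpoint no more than 1 kb away (Msx1, Barx1, Sp7, Col1a1 and Col1a2), a share near the 46.6% of all protein-coding genes. The same held for 1 of 8 for dental epithelium (Ambn), 1 of 4 for immune cells (Cd3d) and 1 of 3 for endothelium (Kdr).

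Noncoding genes make RNAs that act without being translated. RNA polymerase II transcribes lncRNAs and the hosts of many small nucleolar RNAs (snoRNAs) and microRNAs (miRNAs). RNA polymerase III makes tRNAs, 5S ribosomal RNA, 7SK and Y RNAs. For tRNAs and 5S ribosomal RNA it uses promoter elements inside the gene. Plagl1 (Zac1) is an imprinted zinc-finger transcription factor that restrains the cell cycle, and the authors searched each window for its motif.

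The motif sites with the highest log-odds scores at member windows are printed first because they show what the search matched. Capitals mark bases 4 to 7 of each 10-base site, and letters run 5′ to 3′ on the strand of the motif. The scores are the authors'.
n-TAtgc9: tatGAGGccc
2310040G24Rik: catGAGGccc
Peg13: aatGAGGccc
Gm41519: caaGGGGccc
n-THgtg3: aaaGAGGccc
Snhg12: cgtGGGGccc
Norad: tgaGGGGccc

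At n-TAtgc9, a tRNA gene for alanine, the site at chr11:48834453-48834462 scored 7.74, the highest of all 5753 sites in the 13500 windows. It lay inside the transcribed tRNA (48834429 to 48834500). In the lncRNA 2310040G24Rik the site scored 7.54, and in Peg13, an imprinted lncRNA, it scored 7.52 at chr15:72810135-72810144. The Gm41519 site scored 7.36, the n-THgtg3 site 7.27, the Snhg12 site 7.07 and the Norad site 7.02. Snhg12 and Norad are shown because, after Peg13, they scored highest among genes of the RNA lists. A match is a sequence match and not a measured binding event.

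Promoters with such sites are shown for 5 lncRNA genes: a pair of snoRNA hosts, a miRNA host, Firre and the gene with the most sites. They are RefSeq sequences of GRCm38.p6 from 250 bases before to 50 after the start, on the strand of the gene. Capitals mark the Plagl1 motif sites that the authors list, in either orientation, where the window covers the promoter. Bases outside the window were not searched, so a match there stands in lower case.
Snhg5 promoter: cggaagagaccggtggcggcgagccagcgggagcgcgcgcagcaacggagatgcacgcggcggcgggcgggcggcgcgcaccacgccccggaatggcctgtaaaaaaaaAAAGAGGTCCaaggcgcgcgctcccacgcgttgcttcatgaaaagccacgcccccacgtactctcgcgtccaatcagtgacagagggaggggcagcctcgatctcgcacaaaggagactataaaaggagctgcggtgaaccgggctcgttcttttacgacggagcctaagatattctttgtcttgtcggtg
Snhg20 promoter: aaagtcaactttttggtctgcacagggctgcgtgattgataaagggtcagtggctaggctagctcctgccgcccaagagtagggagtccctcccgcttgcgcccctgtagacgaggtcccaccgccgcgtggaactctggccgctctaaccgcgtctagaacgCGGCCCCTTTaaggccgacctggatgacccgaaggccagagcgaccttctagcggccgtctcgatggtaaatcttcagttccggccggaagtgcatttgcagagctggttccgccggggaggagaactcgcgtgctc
Mir22hg promoter: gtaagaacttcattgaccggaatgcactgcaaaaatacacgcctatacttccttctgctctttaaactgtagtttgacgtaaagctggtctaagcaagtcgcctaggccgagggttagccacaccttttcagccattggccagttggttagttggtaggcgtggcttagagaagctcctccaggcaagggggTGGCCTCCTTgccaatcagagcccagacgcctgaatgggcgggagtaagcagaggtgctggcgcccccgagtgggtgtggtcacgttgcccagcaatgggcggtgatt
Firre promoter: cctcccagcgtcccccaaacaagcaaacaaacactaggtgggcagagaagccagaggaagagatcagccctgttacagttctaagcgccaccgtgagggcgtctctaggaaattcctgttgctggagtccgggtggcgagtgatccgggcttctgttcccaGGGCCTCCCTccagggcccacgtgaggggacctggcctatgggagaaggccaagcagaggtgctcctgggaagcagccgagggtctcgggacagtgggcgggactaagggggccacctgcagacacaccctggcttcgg
E130018N17Rik promoter: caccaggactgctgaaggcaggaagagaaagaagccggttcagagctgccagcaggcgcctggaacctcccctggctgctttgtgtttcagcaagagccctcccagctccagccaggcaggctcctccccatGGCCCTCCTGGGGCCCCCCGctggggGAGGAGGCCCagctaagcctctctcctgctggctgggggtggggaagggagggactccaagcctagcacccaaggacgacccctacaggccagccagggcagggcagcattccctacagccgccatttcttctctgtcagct

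The Snhg5 promoter is chr9:88522848-88523147 (minus strand) and holds 1 listed site. That of Snhg20, chr11:117076533-117076832 (plus strand), also holds 1. Mir22hg hosts miR-22, and its promoter, chr11:75461289-75461588 (plus strand), holds 1 site. Firre, an X-linked lncRNA that takes part in nuclear organisation, has 1 site in chrX:50635272-50635571 (minus strand). In E130018N17Rik the promoter, chr2:168154464-168154763 (minus strand), carries 4 sites, of which 3 overlap in 1 run of capitals. No other member window held 4 sites.

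Mature miRNAs of the genes at member windows are shown next, with the seed (bases 2 to 8) in capitals, from RefSeq (GRCm38.p6). They are chosen because their genes are in a list of miRNAs of the cell cycle and mesenchyme.
miR-132-3p: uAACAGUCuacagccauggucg
miR-212-3p: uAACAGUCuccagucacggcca
miR-199a-3p: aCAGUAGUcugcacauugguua
miR-199a-5p: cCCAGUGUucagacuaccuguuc
let-7i-5p: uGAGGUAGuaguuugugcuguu
miR-210-3p: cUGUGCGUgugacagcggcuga

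The seed was shared by miR-132-3p and miR-212-3p, whose genes lie side by side on chromosome 11 and share 1 window. Both Mir199a-1 and Mir199a-2 make the same miR-199a-3p, which has the same sequence as miR-199b-3p from Mir199b.

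How the members arise from the rule was described without a test. Midpoints of 1992 windows lay within 1 kb of a noncoding end. Of these, 1265 (63.5%) also lay within 1 kb of a protein-coding end, which left the 727 members (36.5%). The farthest member midpoint was 996 bp from its noncoding end, and the nearest window outside that distance was at 1007 bp. The member closest to a protein-coding end was 1029 bp away. Of the members, 571 members (78.5%) lay within 500 bp of a noncoding end, 409 (56.3%) within 250 bp and 231 (31.8%) within 100 bp. Their median distance was 193 bp. The median distance to the nearest protein-coding end was 10764 bp, with 374 members (51.4%) over 10 kb away and 55 (7.57%) over 100 kb away. For 98 members (13.5%) that end was within 2 kb. The midpoint lay inside a noncoding gene for 375 members (51.6%), inside a protein-coding gene for 292 (40.2%) and outside every gene for 170 (23.4%). Some midpoints lay in both kinds of gene. Members were found on 20 chromosomes, from 3.62% of the windows on chromosome 19 to 7.26% of those on chromosome 17. Of the 800 genes, 597 (74.6%) have provisional symbols such as Gm or Rik names.

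**Figure D1:**
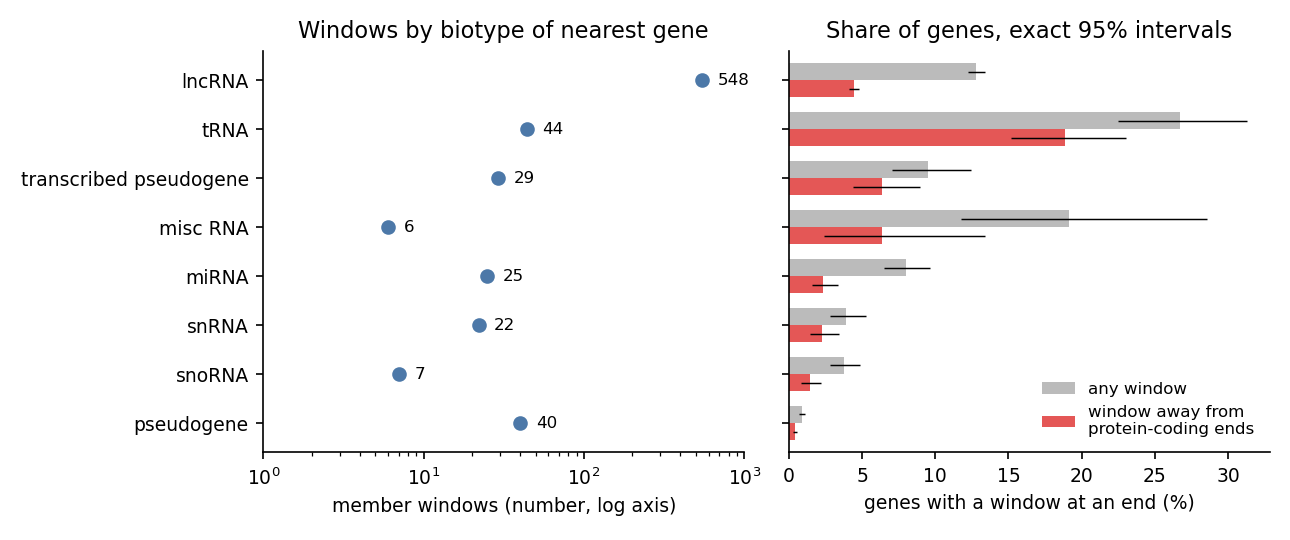
Left, member windows by the biotype of the nearest noncoding gene, as points on a log axis. Right, the share of genes of each biotype with any window within 1 kb of an end (grey) and with a member window (red), with exact 95% intervals. Long noncoding RNAs hold 548 windows, and of the 8 biotypes drawn tRNA genes have the highest share with a member window, 18.9%.

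Biotypes differed widely in how often their genes had a window. Of 28056 noncoding genes in the table, 7.45% had any window within 1 kb of an end, against 46.6% of 21887 protein-coding genes. Among lncRNA genes, 566 of 12727 (4.45%) had a member window and 1631 (12.8%) had any window. Among tRNA genes, 77 of 408 had a member window (18.9%, exact 95% interval 15.2 to 23.0%). Transcribed pseudogenes followed with 31 of 485 (6.39%), miRNAs with 29 of 1228 (2.36%) and small nuclear RNAs (snRNAs) with 23 of 1004 (2.29%). Small nucleolar RNAs had 19 of 1340 (1.42%), and pseudogenes without transcription had 42 of 9944 (0.422%). None of the 394 V segments or 82 J segments of antigen receptor genes had any window, with upper bounds of 0.932% and 4.40%. These intervals cover counting error only, and neighbouring genes can share a window. By the biotype of the nearest gene, the 727 windows split into 548 at lncRNAs (75.4%), 44 at tRNAs, 40 at pseudogenes, 29 at transcribed pseudogenes, 25 at miRNAs, 22 at snRNAs, 7 at snoRNAs and 6 at miscellaneous RNAs. Single windows lay at 5S rRNA n-R5s136, Rny1 (a Y RNA), Rn7s2 (the RNA of the signal recognition particle), Terc (the template RNA of telomerase), Dlx1as (antisense to Dlx1) and Scarna2 (a guide RNA of Cajal bodies).

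Windows at lncRNAs sat at starts. RefSeq promoters give the strand of 467 of the lncRNA genes, in 478 pairs of window and gene. In 426 pairs (89.1%, 86.0 to 91.8%) the window was within 1 kb of the start, and in 52 (10.9%) it was near the finish only. At protein-coding ends outside the members, 8184 of 8596 pairs (95.2%, 94.7 to 95.6%) were at the start. The median lncRNA window midpoint was at -1 bp relative to the start, with quartiles of -170 and 179 bp, and 213 midpoints were upstream and 213 downstream. The protein-coding median was 93 bp downstream, with 2368 midpoints upstream and 5816 downstream. Of the lncRNA pairs at a start, 259 (60.8%) lay within 250 bp of it, against 75.5% of the protein-coding pairs. Motif sites faced the strand of the lncRNA in 109 of 214 cases (50.9%, 44.0 to 57.8%).

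**Figure D2:**
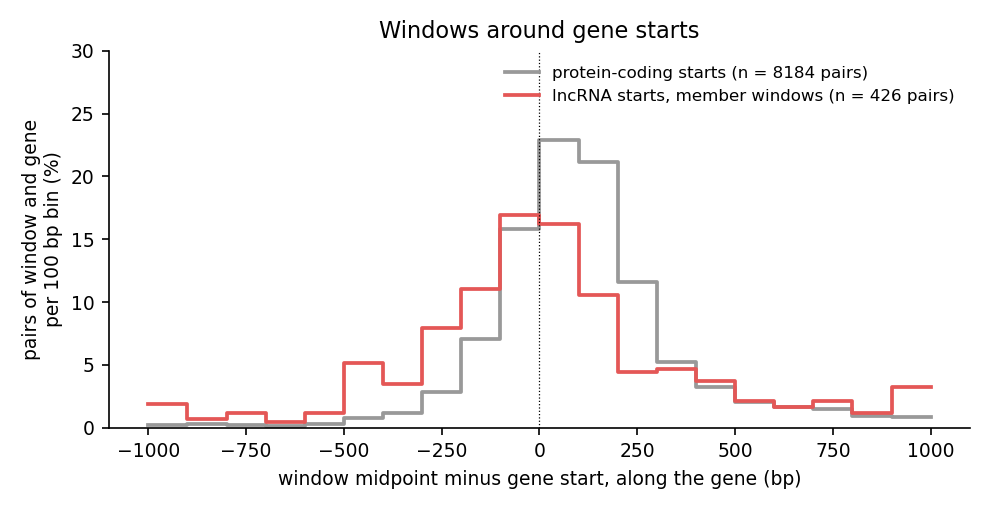
Position of the window midpoint relative to the gene start along the gene, in 100 bp bins, as the percent of pairs of window and gene. Member windows at lncRNA starts (red) centre near 0, with as many midpoints upstream as downstream, and protein-coding starts (grey) peak downstream.

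Host genes of snoRNAs were the list with the largest share of members. Of 17 such genes, 11 had a member window (64.7%, 38.3 to 85.8%), 5 shared their window with a protein-coding end (Gas5, Snhg1, Snhg10, Snhg18 and Snhg6) and Snhg11 had none. Over all lncRNA genes, 4.45% had a member window and 12.8% had any window. The 11 were Snhg3, Snhg4, Snhg5, Snhg7, Snhg8, Snhg9, Snhg12, Snhg15, Snhg16, Snhg17 and Snhg20. Sites were present in 4 of their windows. Snhg12 carried the site scoring 7.07, Snhg17 one of 6.33, Snhg20 one of 6.19 and Snhg5 one of 5.51. GC content, the percent of bases that are G or C, ran from 55.2% at Snhg16 and Snhg17 to 70.6% at Snhg4. Some of these host windows, but not all, lay within 1 kb of a snoRNA gene. Examples were Snora16a for the Snhg12 window, Snora73a for Snhg3, Snora24 for Snhg8 and Snora78 for Snhg9. The window of Dancr, a lncRNA, also lay within 1 kb of the snoRNA Snora26 in the same gene, at 66.2% GC and with no site.

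Imprinted and well-studied lncRNAs were found less evenly. The share to set beside each list here is the 4.45% of all lncRNA genes with a member window. Of 11 imprinted noncoding RNAs, 3 had a member window (27.3%). Airn, which silences the paternal Igf2r region, had a window 154 bp from its start at 58.7% GC and no site. Kcnq1ot1, which silences the Cdkn1c region, had one 32 bp from its start at 58.7% GC, with a site scoring 6.37. Peg13 had the site of 7.52 given above, at 60.7% GC. H19, Meg3, Rian, Mirg, Ipw, Igf2os, Snhg14 and Gnasas1 had no window within 1 kb of an end. Of 22 well-studied lncRNAs, 10 had a member window (45.5%): Bvht, Carmn, Crnde, Dnm3os, Firre, Jpx, Malat1, Norad, Oip5os1 and Pvt1. Tug1 shared its window with a protein-coding end, and 11 had none, among them Neat1, Xist, Tsix and Miat. Norad, which binds Pumilio proteins, had a window at 71.6% GC with 2 sites, the better scoring 7.02. Jpx, an activator of Xist, and Malat1, a nuclear-speckle RNA, had no site, at 58.7% and 68.7% GC. The Malat1 window was 918 bp before the start of the gene, and the Pvt1 window was 18 bp from an end. Pvt1 lies beside Myc, and its window had 72.6% GC. Of 13 miRNA host genes, 3 had member windows (23.1%). They were Carmn (the host of miR-143 and miR-145, also in the list before), Dleu2 (the host of miR-15a and miR-16-1) and Mir22hg. Dleu2 had a pair of windows, at 63.7% and 75.6% GC.

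Of 27 antisense and opposite-strand RNAs of developmental regulators, 1 had a member window (3.70%), a share near the 4.45% of all lncRNA genes. It was Dlx1as, with a window 977 bp from an end at 69.2% GC and no site. Dlx4os, Fendrr, Foxd2os and Tbx3os1 shared their windows with a protein-coding end, and 22 had none, including Hotair and the Hox antisense RNAs. The miRNA list gave 6 of 81 genes (7.41%, 2.77 to 15.4%), beside 2.36% of all miRNA genes. With any window the list had 8.64%, near the 7.98% of all miRNA genes. Mirlet7i, a let-7 gene, had the most GC-rich member window, at 88.1% GC and 20.5 CpG per 100 steps, where a step is a pair of neighbouring bases. Mir212 and Mir132 shared a window at 73.1% GC that covered the whole Mir212 hairpin. The Mir210 window, of a miRNA induced by low oxygen, lay 335 bp before the hairpin at 64.7% GC, with a site scoring 6.38. Mir199a-2 lies in the lncRNA Dnm3os, and 1 window at 53.2% GC lay 30 bp from the start of Dnm3os and 161 bp before the hairpin. Over the 26 pairs of window and matched hairpin, 5 hairpins lay whole inside a window, 3 lay in part and 18 lay outside.

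Genes for tRNAs formed the second group. Their 77 genes with a member window fell in 53 windows, 19 of which held ends of more than 1 tRNA gene, and covered 20 amino acid letters. Glycine and leucine had most, with 9 of 28 and 9 of 25 genes, and cysteine had 3 of 56. For windows nearest to a tRNA, median GC was 56.2% (42.8 to 72.6%) and 13 of 44 (29.5%, 16.8 to 45.2%) had a site. In the stretch with most windows, chr1:171038243-171111591, 6 windows lay at 11 tRNA genes, with GC from 43.8 to 66.2% and a site in 3. Only n-TAtgc9 and n-TCgca55 held a site inside the tRNA gene itself. The windows of n-THgtg3 and n-THgtg5 are 1 window at 48.8% GC with 2 sites, the better scoring 7.27.

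Of 23 RNA polymerase III and housekeeping RNAs, 9 had a member window (39.1%), beside 800 of all 28056 noncoding genes. The 9 were Rn7s2, Rn7sk, Rnu1a1, Rnu2-10, Rnu3b1, Rnu5g, Rny1, Terc and Vaultrc5. Bc1, Rmrp, Rn7s1, Rnu12, Rnu3a, Rnu7 and Rpph1 shared a window with a protein-coding end. With any window the share was 69.6% of this list, beside 7.45% of all noncoding genes. Rn7sk, which holds the elongation factor P-TEFb inactive, had a window at 42.3% GC, and Rnu5g, a U5 spliceosomal RNA, at 36.3%. Neither held a site. Terc had 63.7% GC and a site scoring 5.57, and Rny1 had 51.7% and a site of 6.98.

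Windows at the U3 genes, whose RNA guides ribosomal RNA cleavage, lay mostly in pairs. The cluster on chromosome 11 (87422845 to 87471785) has 9 windows at 7 snRNA genes. At Rnu3b1, the window at lower coordinates had 64.7% GC and that at higher coordinates 37.8%. For Rnu3b2 the pair had 59.7% and 32.3%, and for Rnu3b3 66.2% and 35.3%. Rnu3b4 had only the window at higher coordinates, at 33.3%. In all 3 pairs the GC-rich window lay on the lower side. These genes are near-identical copies. No source used here says how the authors placed reads among copies, so windows at single copies are uncertain. The same limit applies to other small multi-copy RNA genes, tRNA genes among them, and read placement there was not checked.

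**Figure D3:**
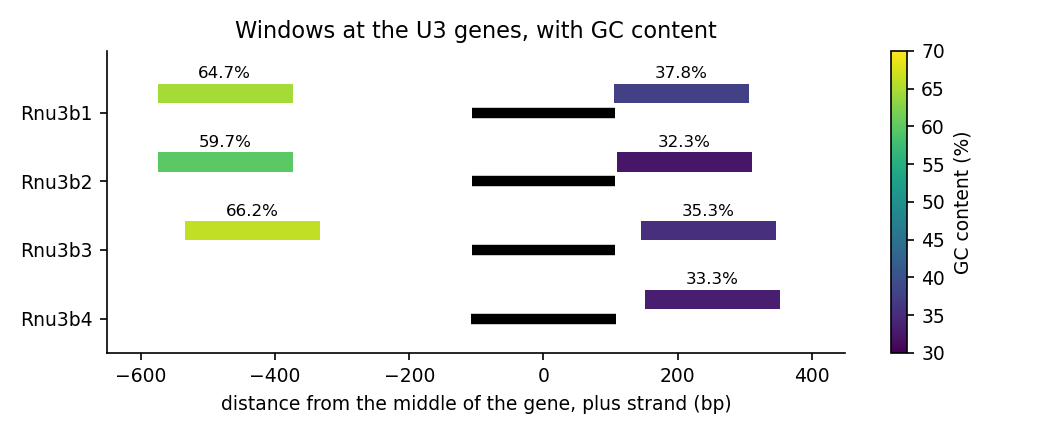
Windows (coloured bars, with their GC percent) around the U3 genes (black bars), by distance in bp from the middle of each gene on the plus strand. In Rnu3b1, Rnu3b2 and Rnu3b3 a GC-rich window lies at lower and an AT-rich window at higher coordinates, and Rnu3b4 has the AT-rich one alone.

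Member windows were less GC-rich than windows at protein-coding ends and more so than windows outside protein-coding genes. As comparison classes, windows inside and outside protein-coding genes are only those over 1 kb from every gene end, coding or noncoding. Their mean GC was 62.4%, against 67.8% at the 9078 windows at protein-coding ends. The fitted difference was -5.41 points (95% interval -6.20 to -4.62, Benjamini-Hochberg adjusted p = 4.76e-41 over 12 contrasts of a linear model with HC3 errors fitted to all windows). Against windows outside protein-coding genes it was 7.33 points (6.40 to 8.25, adjusted p = 1.04e-53). Against windows inside protein-coding genes the difference was -0.333 points (-1.23 to 0.563, adjusted p = 0.622). For CpG, which is depleted across most of the genome and retained at CpG islands, the mean was 7.36 per 100 steps in members and 10.0 at protein-coding ends, a difference of -2.64 (-2.98 to -2.30, adjusted p = 1.61e-50). It was 3.53 higher than outside protein-coding genes (3.14 to 3.91, adjusted p = 5.16e-72) and 0.0955 from those inside them (-0.298 to 0.489, adjusted p = 0.761). Windows are not biological replicates, and these tests treat them as independent.

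Composition varied by biotype and by place. Median GC was 63.7% at lncRNAs, 62.2% at transcribed pseudogenes, 64.7% at miRNAs, 56.2% at tRNAs, 55.5% at snRNAs, 55.2% at pseudogenes and 74.9% at the 6 miscellaneous RNAs. CpG medians were 7.5 per 100 steps at lncRNAs, 5.75 at tRNAs and 2 at pseudogenes. Members inside a protein-coding gene had a median GC of 68.2% and 9.5 CpG per 100 steps, against 59.2% and 5.5 for those outside. The comparison class inside protein-coding genes had medians of 63.7% and 7, and the class outside 55.2% and 2.5. The fitted contrasts above pool both kinds of member, and the kinds were not tested apart against these classes. After Mirlet7i, the lncRNA 9430083A17Rik had the most GC, at 87.6%. The highest CpG, 21 per 100 steps, was at Gm41375 and 6530409C15Rik. The lowest GC, 27.9%, was at the pseudogene Gm10222.

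**Figure D4:**
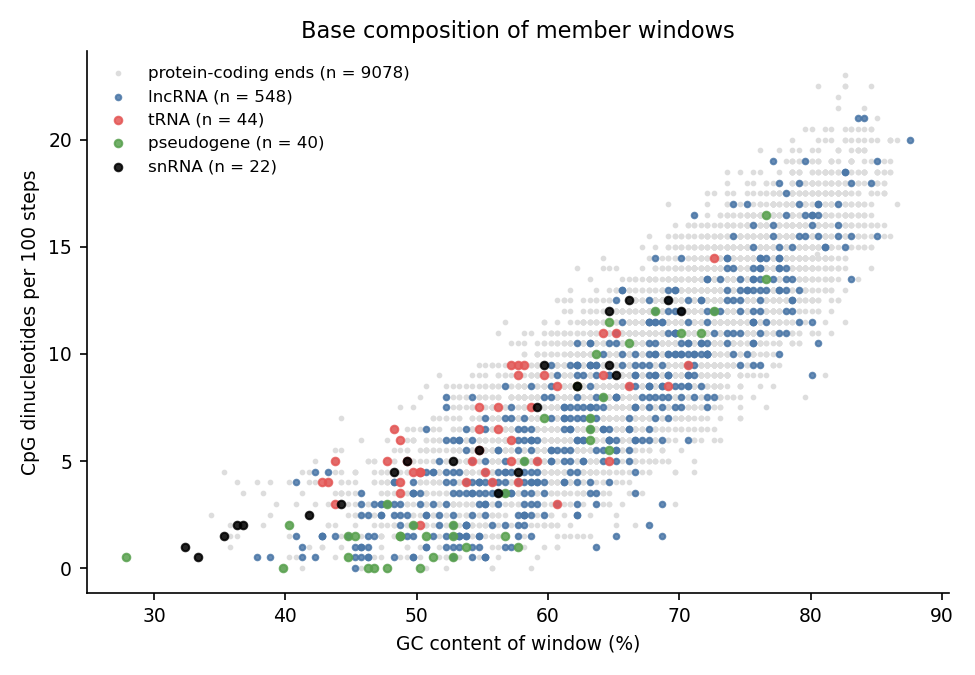
GC percent (horizontal) and CpG per 100 steps (vertical) of member windows by biotype of the nearest gene, over windows at protein-coding ends in pale grey. The lncRNA windows spread over most of the range, while tRNA windows lie between 42.8 and 72.6% GC.

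A Plagl1 motif site was present in 269 of 727 members (37.0%, 33.5 to 40.6%), beside 32.9% of all 13500 windows. Protein-coding ends had 32.8% (31.8 to 33.7%), windows inside protein-coding genes 33.6%, and windows outside 30.5%. In a logistic fit over all windows with GC and CpG as terms, the odds of a site at members over protein-coding ends were 1.26 (1.07 to 1.48, Benjamini-Hochberg adjusted p = 0.0138 over the 12 contrasts). Over windows inside protein-coding genes they were 1.22 (1.02 to 1.46, adjusted p = 0.0475), and over those outside 1.28 (1.05 to 1.56, adjusted p = 0.0268). The difference from protein-coding ends did not pass the threshold for sites scoring 6 or more, with odds of 1.01 (0.814 to 1.24, unadjusted p = 0.960), nor when genes with provisional symbols were left out, with 1.15 (0.822 to 1.61, unadjusted p = 0.415). For sites scoring 6 or more the share was 15.8% of members (13.2 to 18.7%), beside 15.9% of all windows. The members held 334 sites, with 458 windows at 0, 212 at 1, 50 at 2, 6 at 3 and 1 at 4. A pair or more was in 7.84% of members and 7.37% of windows at protein-coding ends. Best scores differed by 0.00257 from protein-coding ends (-0.0562 to 0.0614, adjusted p = 0.932). At base 5 the site had an A in 162 of 334 (48.5%, 43.0 to 54.0%), against 43.2% of 3790 sites at protein-coding ends. There were 238 distinct sequences, and the most frequent, CAGGGGGCGC, occurred 6 times.

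**Figure D5:**
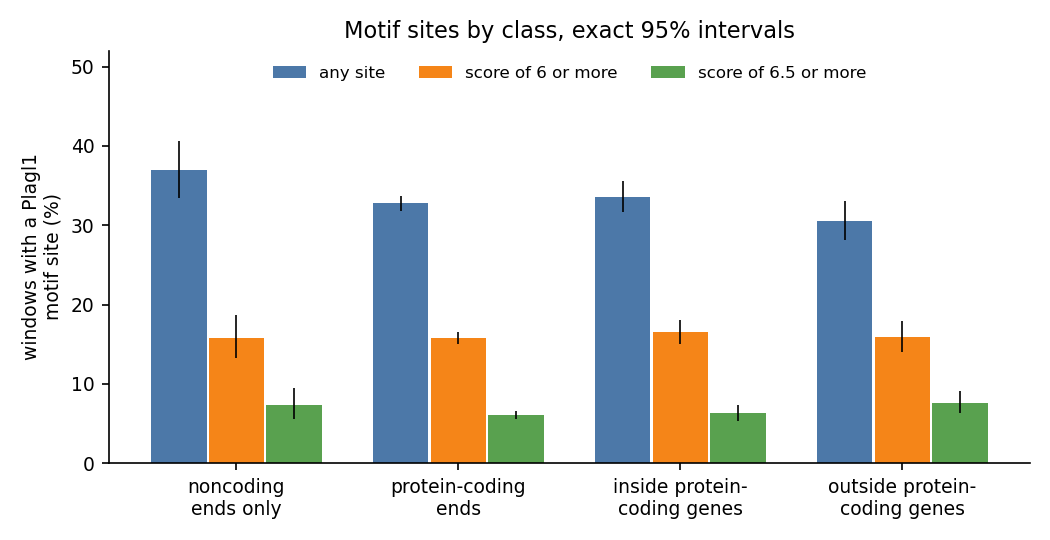
Percent of windows with a Plagl1 motif site by position class, for any site (blue), a score of 6 or more (orange) and 6.5 or more (green), with exact 95% intervals. The classes inside and outside protein-coding genes hold windows over 1 kb from every gene end. Members stand at 37.0% for any site and at 15.8% for 6 or more, beside 15.8% at protein-coding ends.

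By biotype, sites were in 37.8% of windows at lncRNAs (33.7 to 42.0%), 37.5% at pseudogenes (22.7 to 54.2%), 32.0% at miRNAs (14.9 to 53.5%), 31.8% at snRNAs (13.9 to 54.9%) and 31.0% at transcribed pseudogenes (15.3 to 50.8%). These intervals overlap, and biotypes were not tested against each other. Sites inside the span of any noncoding gene numbered 162 in lncRNAs, 2 in tRNAs and 1 in Terc. The 3 windows around snoRNA genes at chr7:59767391-59797432 each held a site, at 47.3 to 48.3% GC. The 4 snRNA windows at chr1:72225887-72254932 held none, at 59.2 to 65.2% GC, and 2 of the 9 in the chromosome 11 snRNA cluster held one. Over all windows nearest to a snoRNA it was 4 of 7 (57.1%, 18.4 to 90.1%). These groups are small and were not tested, and 37.0% of members and 32.9% of all windows held a site. Those 3 chromosome 7 sites lay inside the span of the imprinted lncRNA Snhg14 (chr7:59272737-60450177), whose own ends had no window.

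Promoters of lncRNA genes that overlap a member window differed in composition from lncRNA promoters as a whole. Of the RefSeq promoters, 191 (of 181 genes) shared at least 100 bases with a member window. Their median GC was 62.7%, against 48.3% over all lncRNA promoters. GGGCGG, a GC box bound by Sp1-family factors, was in 68.6% of them on either strand, against 16.3% of all 11588 lncRNA promoters and 35.7% of all 32851 promoters. CACGTG, an E-box, was in 15.2%, 5.89% and 7.15%, and CCGGAAG, an ETS site, in 9.95%, 3.89% and 8.86%. For TGACGTCA, the cyclic AMP response element, the shares were 3.14%, 0.975% and 1.79%. TATAAA, the TATA box, was in 7.33%, 15.5% and 13.6%, TGANTCA, the AP-1 site, in 5.24%, 9.31% and 7.81%, and CCAAT in 36.6%, 36.0% and 37.4%. The motifs were searched on both strands, without allowing for overlap with a Plagl1 site. The shares are descriptions, were not tested, and move with GC content. The full sets include promoters with and without a window, and promoters at windows outside the members were not set apart.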

How the data were processed

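The study has 2 ATAC-seq libraries of a control group and 1 of a mutant group. Per the submitters' processing notes, the genome was mm10 and the tools were MACS2 2.1.1, Bowtie2 2.3.5, edgeR, bedtools, Picard, cutadapt 1.18 and FastQC 0.11.8. Per the file headers, HOMER annotatePeaks searched the union peaks for 1 motif, 100 bp to either side of each centre. The choice of those peaks is not stated in the labels or headers. Each deposited GC value is a fraction of the bases of a window, and was turned into percent. Each deposited CpG value is a ratio of CpG dinucleotides to steps between bases, and was turned into a number per 100 steps. The deposited site score is the authors' log-odds score, whose log base no header states. The deposited site text (offset, letters, strand and score) was split into sites, and all 5753 matched the site list.

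Gene positions were those of RefSeq on GRCm38.p6, the assembly that mm10 shows. Distances were measured from window midpoints to both ends of genes, within 1 kb. Strand came from RefSeq promoters, which were matched for 467 lncRNA genes. GC, CpG and best score were fitted with linear models (HC3 errors) and site presence with a logistic model with GC and CpG terms, over all windows, two-sided, adjusted by Benjamini-Hochberg over 12 contrasts at 0.05. The fits were tested on simulated data. Shares have 95% intervals by the exact Clopper-Pearson method, for counting error alone. The depth of libraries was not used here, and no comparison between groups was made.

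Named genes were list members with a member window, genes of biotypes with at most 10 such genes, the 10 genes nearest to a window in each large biotype, and those at the windows with highest scores, most sites, highest or lowest GC, highest CpG or most windows; a selection of them is printed. The members and the lists were chosen with earlier results of these data known. Alternatives varied the distance, the gene classes, the score minimum, the model terms and the errors. Versions were matplotlib 3.10.9, statsmodels 0.14.6, pandas 2.3.3, scipy 1.17.1, numpy 2.4.6 and Python 3.11.15.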

Additional observations from a re-analysis of the deposited data

How the results depend on the processing

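Of 57 alternative values, 50 were labelled the same as the main result, 5 had moved and 2 were weaker. Only the odds and the GC and CpG differences have a direction and a call. Counts, shares and medians have neither, and for them the label means only that the value stayed near the main one. That label was loose: a count of 562 windows, with lncRNA genes only, was still labelled the same as 727. Every alternative median of GC (59.2 to 64.2%) and of CpG (5.5 to 7.5) was labelled the same. Those ranges are narrow beside the standard deviations among member windows, 10.6 points for GC and 4.60 for CpG. The tally of 50 therefore says little about the medians. The number of member windows was 170 without genes with provisional symbols and 435 without midpoints inside protein-coding genes, and otherwise 562 to 792. The share with a site was 31.8% without provisional symbols, 15.8% for scores of 6 or more and 7.29% for 6.5 or more. The odds over protein-coding ends lost the call under a pair of settings. Without provisional symbols, which leaves fewer windows, the logistic model over all windows gave 1.15 (unadjusted p = 0.415). At scores of 6 or more it gave 1.01 (unadjusted p = 0.960), and the cause was not tested. The other odds ran from 1.20 to 1.42. In the same logistic model they were 1.22 (unadjusted p = 0.0288) with lncRNA genes only. With small multi-copy RNA genes left out they were 1.21 (unadjusted p = 0.0256). Whether these would keep the call after adjustment was not computed. GC differences from protein-coding ends ran from -8.10 to -4.24 points. Settings with lncRNA genes only, with small multi-copy RNAs left out, and the refits by membership were chosen after seeing the data. No paired analysis was possible because the deposited tables carry no value per library, and for the same reason no library could be left out. The depth of a window is unknown.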

Other observations

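Several member windows lay at genes whose symbols are those of protein-coding genes but which the RefSeq table classes otherwise, chosen after their values were seen. Mx2, an interferon-induced GTPase gene that is defective in many laboratory mouse strains, is a transcribed pseudogene there, with a window 2 bp from an end at 52.2% GC and no site. Hyi had a window at 75.1% GC and Magef1 one at 71.6%. The lncRNA Chaserr, which lies upstream of Chd2, had a window 201 bp before its start at 71.6% GC and 12.5 CpG per 100 steps. Lockd, a lncRNA downstream of the cell cycle inhibitor gene Cdkn1b, had one 417 bp before its start at 54.7% GC, and Tunar one 327 bp into the gene at 69.7% GC. None of these 3 lncRNA windows held a Plagl1 motif site.

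Among the member windows lowest in GC, those at Mir101c and Rnu5g each stood at 36.3%, above those at Gm10222, Rnu3b2, Rnu3b3 and Rnu3b4. Between n-R5s136 and the pseudogene Rn5s-ps1 on chromosome 8 lay a window with 57.7% GC and a site scoring 6.48. Another window there had 52.7% GC and no site.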
